A study of Mus musculus with 3 samples.

Results

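Cbx2 peaks that largely kept their signal in H3.3K36M cells were taken from a table of 2217 Cbx2 peaks in C3H10T1/2 cells, a mouse mesenchymal progenitor line derived from C3H embryos. Members were chosen by the measured values themselves: a peak was called kept when its deposited K36M value divided by its WT value was 0.7 or more, with no pseudocount and no rescaling. A total of 245 peaks met this limit. Of these, 33 lay in 3 windows of histone genes (chromosome 13 from 21.70 to 22.20 Mb and from 23.45 to 23.90 Mb, chromosome 3 from 96.00 to 96.20 Mb) and were left out. This left 212 kept peaks among 2178 peaks outside the windows (9.73%), on 20 chromosomes, and 1966 remaining peaks. No filter on low values was applied, so all 212 are described.

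Both groups of cells were at passage 10 to 15. WT cells stably expressed FLAG-HA-tagged wild-type H3.3, and K36M cells, by the title of their library, H3.3 in which methionine replaces lysine 36. The genotype label of the K36M library names wild-type H3.3, so its assignment rests on the title. Endogenous histone H3 genes were not stated to be altered in either group, and the labels do not say whether the lines are single clones. Each group had 1 Cbx2 chromatin immunoprecipitation (ChIP) library, of 29278813 reads (WT) and 36243012 reads (K36M), and 1 input library from WT cells is not in the table's value columns. With 1 library per group there is no replicate error, and no p-value is given. Values are reads per 1000000 library reads (RPM), and densities are RPM per kb of peak. Intervals printed beside values are 95% exact intervals on reads, and they cover counting error only. Since the ratio chose the peaks, every level and ratio of kept peaks below is a description of that choice. Length, position and neighbours did not enter the rule, but peaks of 1 pair of libraries are not replicates.

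Cbx2 is a chromodomain subunit of canonical Polycomb repressive complex 1 (PRC1). The chromodomain binds histone H3 trimethylated at lysine 27, the mark that Polycomb repressive complex 2 deposits, and canonical PRC1 compacts such chromatin. In mesenchymal progenitors, as in other cells, Polycomb domains typically cover CpG-rich promoters of silent developmental regulators, while actively transcribed genes usually lack them. H3.3K36M inhibits methyltransferases that act on lysine 36 of histone H3.

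The table gives positions on the mm9 assembly and no gene names, and no mm9 sequence or annotation was used here. For 19 kept peaks a gene is named, from recall of where well-known genes lie in mm9. The names were chosen after the peaks and their values were seen, and after gene positions on another assembly, GRCm38, had been looked at. Genes that lay at no kept peak were not listed. No peak was assigned to a gene by a table of its own build, so the names are candidate labels for positions. They are no count of any gene class and give no support to a theme among the kept peaks.

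Promoters of 4 named loci are shown because Polycomb peaks are usually found at CpG-rich promoters. RefSeq promoter sequences, 250 bases before to 50 after the transcription start, were matched by symbol, and 9 of the 19 loci had a single entry. The coordinates beside the sequences are on GRCm38.p6 and cannot be set beside the mm9 positions of peaks. Capitals mark CG dinucleotides, and sequences run 5′ to 3′ on the strand of the gene.

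Junb (GRCm38.p6, chr8:84978699-84978998, minus strand): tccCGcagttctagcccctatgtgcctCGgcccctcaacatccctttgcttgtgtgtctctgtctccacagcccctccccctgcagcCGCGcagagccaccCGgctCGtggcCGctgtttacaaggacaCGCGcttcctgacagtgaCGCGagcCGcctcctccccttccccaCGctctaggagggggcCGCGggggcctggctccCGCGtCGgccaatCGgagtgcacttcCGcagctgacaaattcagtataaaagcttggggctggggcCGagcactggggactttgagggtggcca

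Dusp1 (GRCm38.p6, chr17:26508423-26508722, minus strand): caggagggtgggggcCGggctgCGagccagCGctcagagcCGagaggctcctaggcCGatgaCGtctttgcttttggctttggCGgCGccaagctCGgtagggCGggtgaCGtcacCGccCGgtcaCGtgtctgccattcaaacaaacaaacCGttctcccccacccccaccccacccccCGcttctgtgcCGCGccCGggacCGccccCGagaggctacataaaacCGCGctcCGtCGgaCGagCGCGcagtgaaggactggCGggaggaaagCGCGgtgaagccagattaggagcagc

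Cxcl1 (GRCm38.p6, chr5:90890995-90891294, plus strand): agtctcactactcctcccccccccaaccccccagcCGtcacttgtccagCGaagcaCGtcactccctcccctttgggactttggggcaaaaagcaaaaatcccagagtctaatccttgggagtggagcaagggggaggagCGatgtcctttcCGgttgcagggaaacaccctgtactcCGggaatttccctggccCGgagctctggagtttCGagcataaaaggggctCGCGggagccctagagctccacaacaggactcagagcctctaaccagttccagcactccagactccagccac

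Ddit4 (GRCm38.p6, chr10:59951721-59952020, minus strand): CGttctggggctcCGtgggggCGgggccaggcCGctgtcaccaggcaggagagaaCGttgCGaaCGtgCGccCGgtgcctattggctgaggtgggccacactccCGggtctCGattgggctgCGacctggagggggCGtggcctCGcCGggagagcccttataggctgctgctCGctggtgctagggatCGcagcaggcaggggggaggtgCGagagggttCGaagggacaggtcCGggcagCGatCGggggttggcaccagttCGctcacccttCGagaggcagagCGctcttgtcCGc

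CG dinucleotides numbered 21 in the Junb promoter, 31 in Dusp1, 10 in Cxcl1 and 26 in Ddit4. Across all 32851 RefSeq promoters of 300 bases the median was 7, with quartiles of 3 and 20. Shares of all promoters with at least as many were 24.8% for Junb, 10.6% for Dusp1, 43.5% for Cxcl1 and 16.9% for Ddit4. All 9 matched loci held more than the median number, from 10 to 31, and 5 of the 9 held more than the upper quartile. The loci were picked by hand after the values were seen, so these counts describe the printed genes and no other kept peaks.

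Mir21a, which encodes the microRNA miR-21a, is the gene recalled for the kept peak with the third highest K36M signal. The mature microRNA is shown with its seed, bases 2 to 8, in capitals.

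mmu-miR-21a-5p: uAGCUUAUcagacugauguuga

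Kept peaks held a small part of the peak signal in WT and a larger part in K36M, a direction that the rule fixes. Their median signal per peak was 2.10 RPM in WT and 2.29 in K36M, against 3.93 and 1.24 RPM at remaining peaks. They held 37269 of 455982 reads in peaks outside the windows in WT, or 8.17% (95% Wilson interval 8.09 to 8.25%). In K36M they held 49228 of 211332 reads, or 23.3% (23.1 to 23.5%). As a share of the whole library, kept peaks held 0.127% of reads in WT (0.126 to 0.129%) and 0.136% in K36M (0.135 to 0.137%), a ratio of summed RPM of 1.07 (1.05 to 1.08). Remaining peaks held 1.43% and 0.447%, a ratio of 0.313 (0.311 to 0.315). The summed signal of kept peaks was thus nearly level between the libraries as a share of all reads, at 1272.9 RPM in WT and 1358.3 in K36M. A few strong peaks weigh heavily in this sum. The kept peak with the most K36M signal alone went from 89.8 RPM in WT to 149.96 in K36M. By peak, the median ratio was 0.888, and 70 of the 212 had a ratio above 1. By K36M signal, kept peaks made up 5 of the top 10 and 36 of the top 100 peaks outside the windows, against 2 and 7 by WT signal. Since the rule selects on the same values, these shares and ranks are descriptions and no evidence beyond it.

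**Figure D1:**
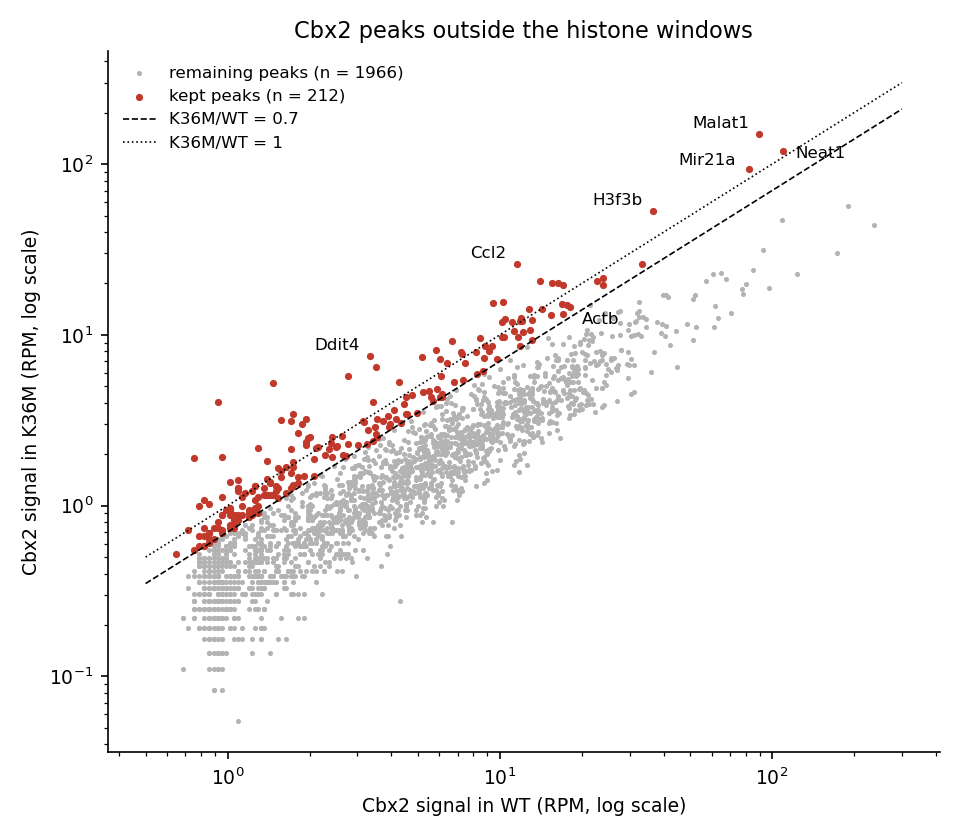
Cbx2 signal per peak in WT (horizontal axis, RPM, log scale) against K36M (vertical axis, RPM, log scale) for 2178 peaks outside the histone windows, each point a peak. The 212 kept peaks (red) lie on or above the dashed line at a K36M/WT ratio of 0.7, and 70 of them lie above the dotted line at a ratio of 1.

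The kept peaks ranged in ratio from 0.702 to 4.37, with a median of 0.888 and quartiles of 0.778 and 1.07. The median of remaining peaks was 0.324, and that of all 2178 peaks 0.339. In 90 kept peaks the ratio was below 0.85, in 52 it lay from 0.85 to 1, in 53 from above 1 to below 1.5, and in 17 it was 1.5 or more. A ratio above 1 was found at 70 peaks (3.21% of all peaks outside the windows) and a ratio of at least 2 at 8 (0.367%). All of these are kept peaks by construction.

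Counting error alone left many memberships uncertain. The interval of the ratio lay above 0.7 at 89 of the 212 kept peaks (4.09% of all peaks outside the windows) and held 0.7 at the other 123. Among remaining peaks, the interval held 0.7 at 376 of 1966 and lay below it at 1590. Of the kept peaks, 30 had an interval above 1 (1.38% of all peaks outside the windows), and at 148 the interval held 1. The interval also held 1 at 83 remaining peaks (4.22%). Values just inside the limit were 0.702, 0.703, 0.704, 0.706 and 0.706, and values just outside were 0.697, 0.696, 0.695, 0.695 and 0.694. The peak nearest the limit from inside had 38 reads in WT and 33 in K36M, with an interval from 0.426 to 1.15. The limit therefore cut through a continuous range of ratios.

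Kept peaks were shorter than the remaining peaks by median, a difference that did not hold for the members whose counting interval lay above 0.7. Their median length was 800 bp (quartiles 400 and 2000 bp), against 1600 bp (600 and 3400 bp), and 1600 bp over all peaks outside the windows. Peaks of 400 bp, the shortest in the table, made up 67 of 212 kept peaks (31.6%) and 360 of 1966 remaining peaks (18.3%). At the other end, 7 kept peaks (3.3%) and 274 remaining peaks (13.9%) were 5200 bp or longer. From shortest to longest class, the kept share was 15.7% at 400 bp, 11.3% at 600 to 1400 bp, 8.08% at 1600 to 3000 bp, 7.56% at 3200 to 5000 bp and 2.49% from 5200 bp.

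Many of the short members had too few reads to place them on either side of the limit. At 400 bp, kept peaks had medians of 30 reads in WT and 32 in K36M, and the interval lay above 0.7 at 14 of 67. It did so at all 22 kept peaks of 3200 to 5000 bp and all 7 of 5200 bp or more. Counting only peaks with the interval above 0.7, the kept share was 3.28, 4.33, 3.38, 7.56 and 2.49% from the shortest to the longest class. These 89 peaks had a median length of 1800 bp, against 1600 bp for all others, so the kept peaks were then no shorter. That selection in turn favours peaks with many reads, which are long. Among peaks with a WT value at or above the median of the table, where reads were less limiting, the 78 kept peaks again had a shorter median, 2400 bp against 3400 bp. That filter lets denser peaks pass at shorter lengths. Kept peaks were denser in WT by median (2.56 against 2.32 RPM per kb), so it does not settle the length difference.

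**Figure D2:**
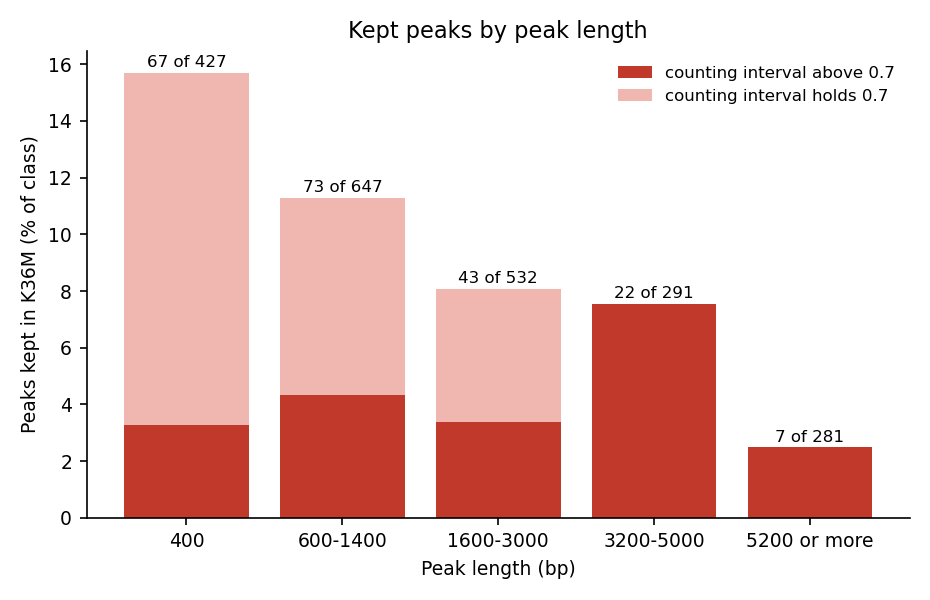
Share of peaks kept in K36M (vertical axis, %) by peak length class (horizontal axis, bp), with the number kept of all peaks in the class above each bar. Dark parts are kept peaks whose 95% counting interval lies above 0.7 and light parts those whose interval holds 0.7; the total falls from 15.7% to 2.49%, while the dark part does not fall steadily.

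In WT, kept peaks were slightly denser than the remaining peaks at the median, and they were more frequent among the densest ones. Median WT density was 2.56 RPM per kb (quartiles 2.21 and 3.36) at kept peaks and 2.32 RPM per kb (2.13 and 2.65) at remaining peaks. In K36M the medians were 2.37 RPM per kb (1.93 and 3.69) and 0.775 RPM per kb (0.621 and 1.02). Every peak outside the histone windows had at least 1.62 RPM per kb in WT. That density was reached in K36M by 194 of 212 kept peaks (91.5%) and by 63 of 1966 remaining peaks (3.20%). The rule selects on the K36M value, so it largely fixes this contrast. By quartile of WT density, from lowest to highest, the kept share was 7.71, 5.88, 9.01 and 16.3%. The densest 5% of peaks by WT value, those of 3.93 RPM per kb or more, numbered 109, of which 37 were kept (33.9%). These 37 are not all separate loci: they include the 6 peaks of 1 run on chromosome 11 (chr11:87236000-87285999).

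Within this densest 5%, kept peaks had higher densities than the others in both libraries, with the wider gap in K36M, which the rule itself selects. The 37 kept peaks of the top 5% had a median of 6.11 RPM per kb in WT and 5.17 in K36M. The other 72 had 4.54 RPM per kb in WT and 1.46 in K36M.

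The 3 kept peaks with the most K36M signal lay at positions recalled as those of Malat1, Neat1 and Mir21a. At Malat1, a nuclear long noncoding RNA made in large amounts in many cell types, a 10000 bp peak (mm9, chr19:5793800-5803799) held 89.8 RPM in the WT library and 149.96 RPM in the K36M library. Its ratio of 1.67 (1.59 to 1.75) put the K36M library above WT by far more than counting error. At Neat1, the RNA scaffold of paraspeckles, the longest kept peak (chr19:5836800-5850399, 13600 bp) held 109.9 RPM in the WT library and 118.9 RPM in the K36M library (ratio 1.08, 1.03 to 1.13). At Mir21a, an 11400 bp peak (chr11:86389800-86401199) had 82.0 and 93.6 RPM, a ratio of 1.14 (1.08 to 1.20). These 3 were also the longest kept peaks, and none was lower in K36M.

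The fourth by K36M signal, a 4600 bp peak at H3f3b (chr11:115881400-115885999), held 36.4 RPM in the WT library and 53.3 RPM in the K36M library (ratio 1.46, 1.36 to 1.58). H3f3b is 1 of the genes that encode histone H3.3, the protein that both groups of cells also express from a transgene. The labels do not give the sequence of the transgene, and reads of a construct and of the locus cannot be told apart in this table.

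Some kept peaks lay at positions recalled as those of chemokine genes. At Ccl2, which encodes a chemokine that attracts monocytes, a 3200 bp peak (chr11:81849000-81852199) had 338 reads in WT (11.5 RPM) and 938 in K36M (25.9 RPM). Its ratio of 2.24 (1.98 to 2.55) was the highest among kept peaks with a WT value at or above the table's median. A peak at the neighbouring chemokine gene Ccl7 had 55 and 109 reads (ratio 1.60, 1.15 to 2.26), and another 1400 bp further, from 81861200 to 81861999, had 81 and 208 reads (ratio 2.07, 1.60 to 2.72). All 3 peaks of this stretch were thus higher in K36M beyond counting error. On chromosome 5, a peak at Cxcl5, a neutrophil chemokine gene, had 51 and 124 reads (ratio 1.96, 1.41 to 2.78). At Cxcl1, another neutrophil chemokine gene, the peak had 494 and 551 reads and a ratio of 0.901 (0.797 to 1.02), an interval that holds 1.

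Other named positions were those of genes that cells can switch on quickly after stimulation or stress. At Ier2, an immediate early gene, a 3600 bp peak (chr8:87183400-87186999) held 9.43 RPM in the WT library and 15.3 RPM in the K36M library (ratio 1.63, 1.41 to 1.89). At Junb, which encodes a subunit of the transcription factor AP-1, a 4200 bp peak (chr8:87498600-87502799) had 15.6 and 20.3 RPM, a ratio of 1.30 (1.15 to 1.46). At Ddit4, a stress-induced inhibitor of mTOR signalling, a 1000 bp peak (chr10:59411400-59412399) had 98 and 271 reads, a ratio of 2.23 (1.77 to 2.84). Lower ratios were measured at Dusp1, a phosphatase gene that restrains MAP kinases, with 11.7 and 9.66 RPM (0.827, 0.710 to 0.962). Ratios were 1.11 (0.923 to 1.33) at Ier3, an early response gene, and 1.19 (1.03 to 1.38) at Atf4, the transcription factor of the integrated stress response. Cebpd, a transcription factor gene induced early in fat cell differentiation, had a ratio of 1.17 (1.01 to 1.36). The intervals of Ier2, Junb, Ddit4, Atf4 and Cebpd lay above 1, that of Dusp1 below 1, and that of Ier3 held 1. Over all kept peaks the interval lay above 1 at 30 of 212 (14.2%). The named positions were picked with their values in view, so the tally describes these positions only.

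Id1 and Id3, which encode inhibitors of basic helix-loop-helix transcription factors, had strong kept peaks with somewhat less signal in K36M. A 4800 bp peak at Id1 (chr2:152561200-152565999) held 22.7 RPM in the WT library and 20.7 RPM in the K36M library (ratio 0.912, 0.821 to 1.01). Id3 had 23.8 and 19.6 RPM over 4000 bp (chr4:135699600-135703599, ratio 0.824, 0.741 to 0.916). The interval lay below 1 at Id3 and held 1 at Id1. The ratio was 0.803 (0.711 to 0.908) at Actb, which encodes beta-actin, and 1.23 (1.10 to 1.39) at Fth1, which encodes the ferritin heavy chain.

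The densest stretch of kept peaks in WT carries no gene name here. A run of 6 consecutive kept peaks on chromosome 11 (chr11:87236000-87285999), each 1000 to 2200 bp long, had 6.86 to 12.9 RPM per kb in WT and 4.90 to 10.7 RPM per kb in K36M. Over all kept peaks the median was 2.56 RPM per kb in WT. The summed signal of the run came to 80.5 RPM for WT and 66.4 RPM for K36M, at a ratio of 0.824 (0.778 to 0.873), and its peaks ranged from 0.714 to 0.934. Further along the chromosome, a 5000 bp peak from 101502600 had 971 reads in WT and 937 in K36M (ratio 0.780, 0.712 to 0.854). The kept peak 11600 bp beyond it, from 101519200, had 498 and 478 reads (0.775, 0.683 to 0.881). All of these were dense peaks with less signal in K36M. A 7200 bp peak on chromosome 17 from 84581000 had 700 and 777 reads (0.897, 0.809 to 0.995), and a 5200 bp peak from 36053200 had 410 and 752 (1.48, 1.31 to 1.68). On chromosome X, a 4600 bp peak from 123307800 had 302 and 568 reads, a ratio of 1.52 (1.32 to 1.75). How reads that match several places in the genome were treated is not given in the sources used here.

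Of the 8 kept peaks with a ratio of at least 2, 4 rested on 22 to 43 WT reads, carry no gene name and had no kept peak as nearest neighbour. The highest ratio, 4.37 (2.88 to 6.85), was at a 400 bp peak on chromosome 15 starting at 3568800, with 27 reads in WT and 146 in K36M. Next was a 600 bp peak on chromosome 17 starting at 21615400, with 43 and 190 reads (3.57, 2.55 to 5.09). A 400 bp peak on chromosome 3 starting at 11476600 had 22 and 69 reads (2.53, 1.55 to 4.30), and one on chromosome 1 starting at 180230200 had 28 and 70 (2.02, 1.29 to 3.25). The peaks nearest to these 4 had ratios of 0.432, 0.658, 0.662 and 0.161. The others of the 8 were the peak at Ddit4, the Ccl2 peak and the one beyond Ccl7, and a 600 bp peak 2000 bp beyond that at Cxcl5, with 46 and 115 reads (2.02, 1.42 to 2.91).

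Kept peaks were spread unevenly over chromosomes. Chromosome 11 held 37 of its 172 peaks as kept (21.5%), the most of any chromosome in number and share, and 21 of the 37 had an interval above 0.7. Chromosomes 5, 7 and 19 followed with 15.4, 14.9 and 14.6%. The lowest shares were 3.23% (1 of 31) on chromosome 18, 4.17% (6 of 144) on chromosome 16 and 4.48% (3 of 67) on chromosome 14. The X chromosome, with 6 of 64 (9.38%), was close to the 9.73% of all chromosomes. Counts under 10 leave these shares imprecise, and neighbouring kept peaks on 1 chromosome are not independent.

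**Figure D3:**
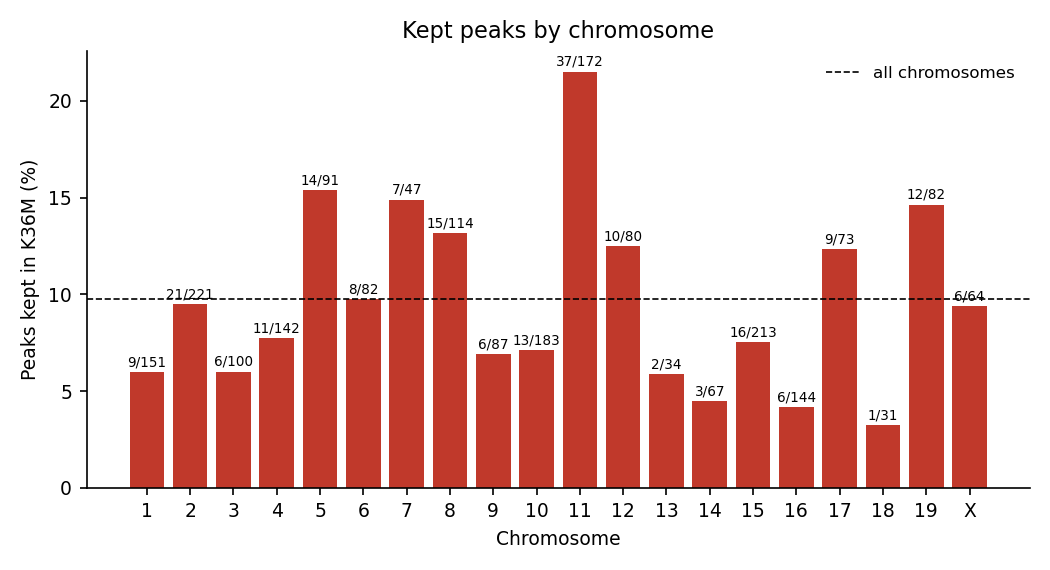
Share of peaks kept in K36M (vertical axis, %) on each chromosome (horizontal axis), histone windows left out, with the number kept of all peaks above each bar. Chromosome 11 stands highest at 21.5%, and the dashed line marks 9.73% over all chromosomes.

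Kept peaks had somewhat fewer peaks close by than the remaining peaks, but those close by were far more often kept. The median distance to the nearest peak was 82200 bp (quartiles 12050 and 447700 bp) for kept peaks and 43800 bp (7400 and 280550 bp) for remaining peaks. Another peak lay within 10 kb of 48 kept peaks (22.6%) and 587 remaining peaks (29.9%), and within 100 kb of 115 (54.2%) and 1207 (61.4%). With the histone windows kept in, the shares within 10 kb were 31.0 and 30.0%. With membership by the interval above 0.7, they were 30.3 and 29.1%. The lower number of close neighbours thus held for the peaks chosen by the ratio outside the windows and not under these alternatives.

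The nearest peak was itself kept for 76 of 212 kept peaks (35.8%) and for 132 of 1966 remaining peaks (6.71%), beside the 9.73% of all peaks. The difference faded with distance. For consecutive peaks up to 5 kb apart, 24 of 33 neighbours of kept peaks were kept (72.7%), against 9 of 421 neighbours of remaining peaks (2.14%). Shares beside kept peaks were 55.6% at 5 to 10 kb, 51.7% at 10 to 50 kb and 54.5% at 50 to 100 kb, and beside remaining peaks 2.84, 4.31 and 5.02%. From 100 kb to 1 Mb they were 14.3 and 10.1%, and beyond 1 Mb 10.4 and 11.4%. Pairs of kept peaks are counted from both sides, and neighbours share both libraries.

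**Figure D4:**
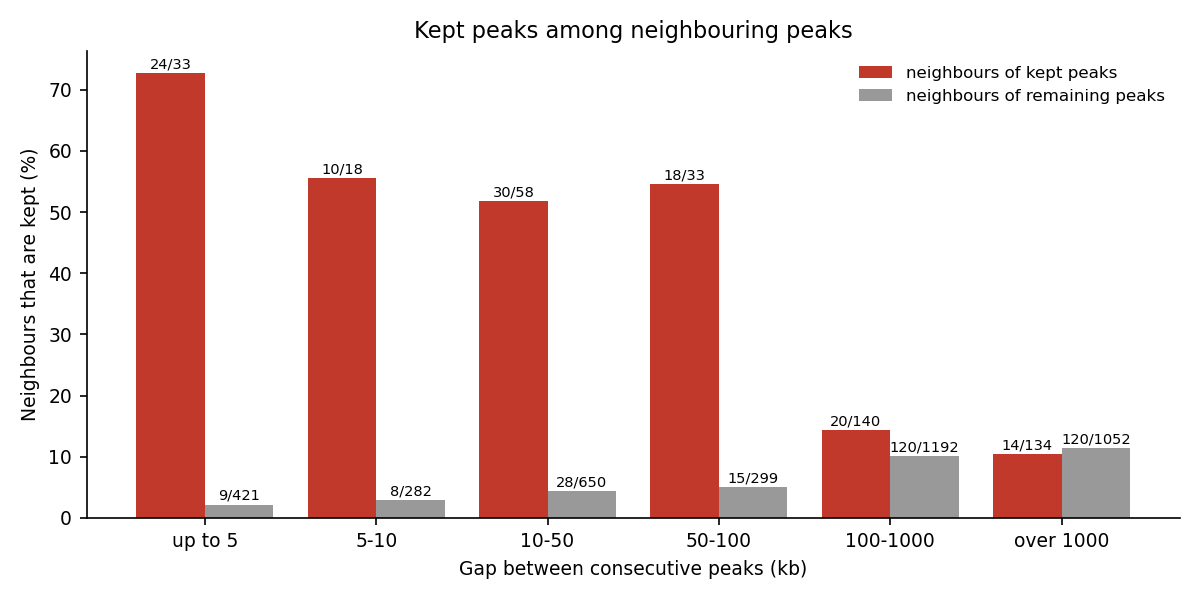
Share of neighbours that are kept (vertical axis, %) by the gap between consecutive peaks (horizontal axis, kb), beside kept peaks (red) and beside remaining peaks (grey), with counts above the bars. Red bars stand between 51.7% and 72.7% up to 100 kb and at 14.3% and 10.4% beyond, where the grey bars are at 10.1% and 11.4%.

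No kept peak lay between peaks that were not kept within 10 kb on both sides. Very few kept peaks could have done so. Only those starting at chr11:81859000, chr11:116709200 and chr19:8797800 had any peak within 10 kb on both sides, so this absence says little. Of the 48 kept peaks with a peak within 10 kb, the nearest was kept for 32. The nearest peaks of the other 16 had ratios from 0.239 to 0.695 with a median of 0.579, above the median of 0.324 over all remaining peaks. These are unlike sets, since only 587 of the 1966 remaining peaks had a peak within 10 kb. The median ratio of those 587 was not computed.

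In table order, 118 kept peaks had no kept peak next to them, 46 formed 23 pairs, and 48 lay in 13 runs of 3 or more. Only 9 of these runs spanned less than 400 kb, since consecutive peaks can lie far apart. Both runs of 6 were on chromosome 11. One is the dense run described above. The other, from 85270800 to 86572799, contains the Mir21a peak and 3 peaks of 400 bp beyond it with ratios of 0.942, 0.808 and 0.757, each resting on 30 to 35 reads per library. A run of 5 on chromosome 8, from 87183400 to 87560999, contains Ier2 and Junb and held 27.7 RPM in the WT library and 38.3 RPM in the K36M library (ratio 1.38, 1.27 to 1.51). A run of 4 on chromosome 12, from 55797400 to 55839799, had 33.9 and 34.4 RPM, a ratio of 1.01 (0.932 to 1.10). The chemokine run on chromosome 11 had the highest ratio of all 13 runs, 2.14 (1.92 to 2.38). The peaks on either side of the 9 compact runs had ratios from 0.197 to 0.675.

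**Figure D5:**
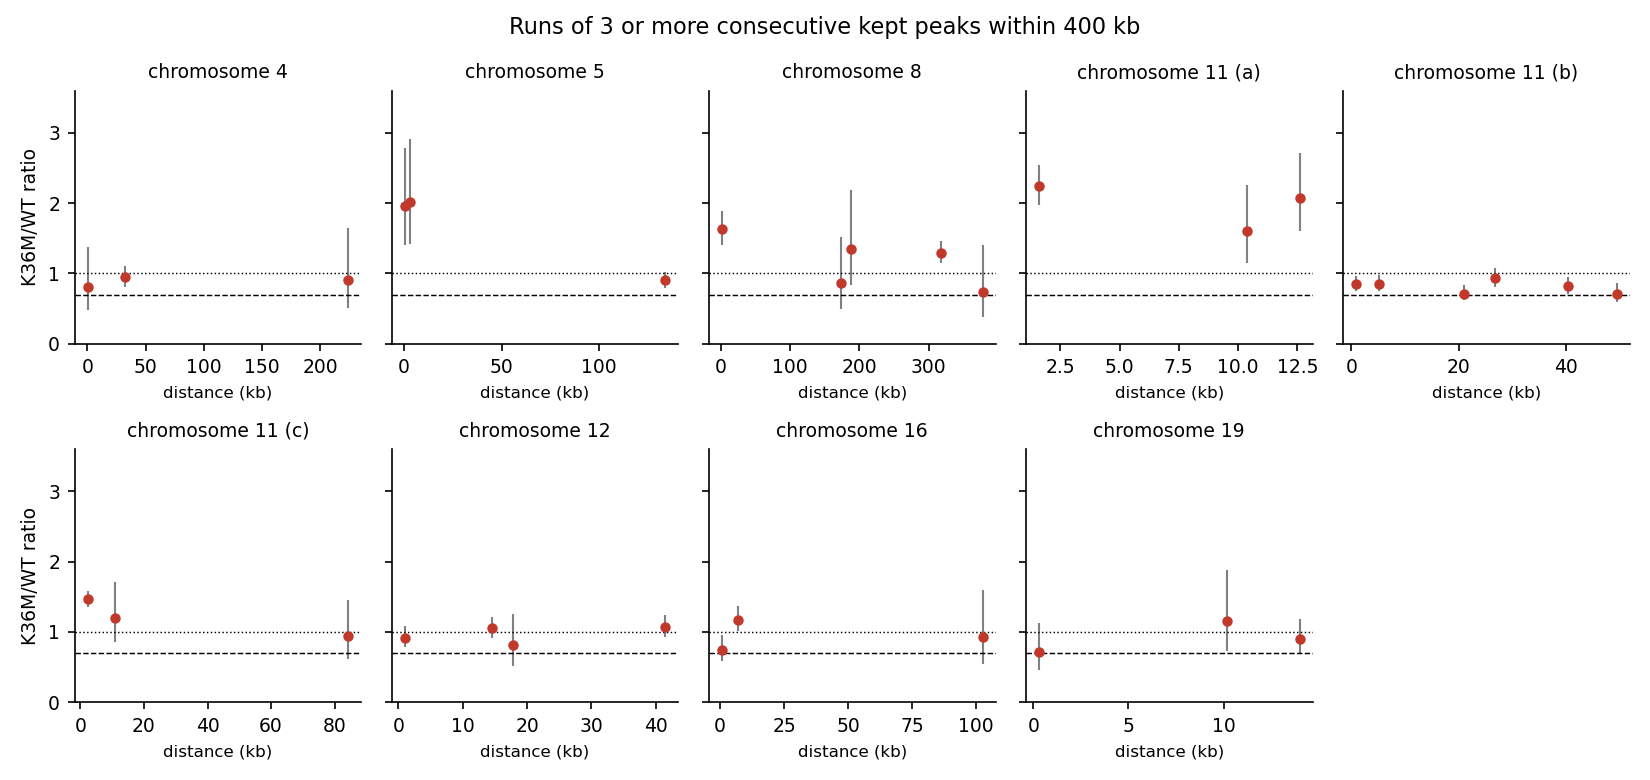
K36M/WT ratio (vertical axis) of each peak in the 9 runs of 3 or more consecutive kept peaks that span less than 400 kb, by distance from the start of the run (horizontal axis, kb). Bars are 95% counting intervals, dashed and dotted lines mark ratios of 0.7 and 1; the first run on chromosome 11 lies wholly above 1, and the second, of 6 peaks, between 0.714 and 0.934.

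Membership depends on how the libraries are scaled. RPM sets the K36M library against all reads, of which peaks hold a small part. Scaling K36M to the same median over peaks as WT, a factor of 2.89, would make 1754 of the 2178 peaks pass 0.7, and scaling to the same sum, a factor of 2.42, 1439. The order of peaks by ratio is not changed by such a factor. Input reads were not analysed here.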

How the data were processed

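One table of Cbx2 ChIP-seq peaks from C3H10T1/2 cells was used, with 1 WT and 1 K36M library. Bowtie 1.0.0 and the mm9 assembly are named per the submitters' processing notes. How peaks were called, from which libraries, with or without input, and how duplicates were handled is not stated there or in the labels. The deposited columns are headed RPKM per the file header, but their values are RPM: within each column they are whole multiples of 1 step whatever the peak length, with a largest deviation of 1.85e-08 of a read (WT) and 1.53e-08 (K36M). That step gave the library reads and the reads per peak. The WT column was assigned by the group in its name. The labels name different suppliers of the Cbx2 antibody in the protocol and in the sample description.

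Ratios, lengths, densities and edge-to-edge distances were computed with Python 3.11.15, pandas 2.3.3, numpy 2.4.6 and SciPy 1.17.1, and checked on simulated data. Ratio intervals are 95% exact Clopper-Pearson intervals given the reads of both libraries, and shares of reads have Wilson intervals. PCR reads lack molecular identifiers here and can repeat a molecule, so the intervals cover counting error only. With 1 library per group no test was run.

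Peaks named in the text are the 10 kept peaks with the highest K36M value, the 10 longest, the 10 with the highest ratio at or above the median WT value, runs of at least 3 consecutive kept peaks, and the 5 peaks on each side of 0.7. Of these, the text gives those it discusses, and adds others chosen after their values were seen: peaks with a gene name, peaks with a ratio of at least 2 and the chromosome 11 peak from 101519200. The members and lists were chosen with earlier results of these data known. The length classes, gap classes, the top 5% of density and the 400 kb limit for plotted runs were set after the values were seen. Gene names were recalled with the peaks in view, after RefSeq gene positions on GRCm38 had been compared with peak positions by eye, and several loci whose placement leaned on that comparison were removed. The names were not looked up in mm9, and they were not checked independently.

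Alternatives were other limits (0.6, 0.8 and 1), a pseudocount of 0.1 RPM, filters on WT value, rescaling of K36M, keeping the histone windows, membership by the interval, leaving out chromosome 11, and other neighbour windows.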

Additional observations from a re-analysis of the deposited data

How the results depend on the processing

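No paired analysis was possible because there was a single library of each genotype. Of 102 alternative values over 11 settings and 3 other neighbour windows, 55 were labelled as the same as the reported value and 47 as moved. Medians and shares were labelled by the interval of the reported value, and counts by a limit of 1.5 times the reported count. That interval treats peaks as independent draws and is not an interval on reads. Peaks of the same pair of libraries are not replicates, so the split into same and moved is no measure of robustness. Kept peaks were shorter by median than the remaining peaks in 10 of the 11 settings. The exception was membership by the interval above 0.7. Their nearest peak was kept more often in all 11, and fewer had a peak within 10 kb in 9. All settings use the same pair of libraries and share members, so these tallies are not separate support.

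With a limit of 0.6 the median K36M density was 2.12 RPM per kb. With 0.8 it was 2.88, and 58 peaks had an interval above that limit. With a limit of 1, 70 peaks were kept with a median K36M density of 3.43 RPM per kb, 22.9% had a kept nearest peak, 8.14% of chromosome 11 peaks were kept, and 30 had an interval above the limit. Among peaks at or above the lower quartile of WT value, 136 were kept, with a median length of 1600 bp and median densities of 2.72 (WT) and 2.91 (K36M) RPM per kb. At or above the median WT value, 78 were kept, with 2400 bp, 3.26 and 3.33 RPM per kb, 23.1% with a kept nearest peak and 52 with an interval above 0.7. A nearest peak below the WT filter counted as not kept whatever its ratio, so the filter itself lowers the share with a kept nearest peak.

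With K36M scaled to the same median as WT, 1754 peaks were kept, with a median length of 1400 bp, 30.2% of at most 600 bp, a median WT density of 2.32 RPM per kb, 84.6% with a kept nearest peak, 87.3% of chromosome 2 peaks kept and 999 intervals above 0.7. With the same sum these were 1439 peaks, 1400 bp, 31.8%, 2.31 RPM per kb, 73.2%, 76.5% and 703. With the histone windows kept in, the median K36M density was 2.83 RPM per kb, 31.0% had a peak within 10 kb and 44.5% a kept nearest peak.

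With membership by the interval, 89 peaks were kept. Their median length was 1800 bp, 23.6% were at most 600 bp long, and median densities were 2.79 (WT) and 3.76 (K36M) RPM per kb. Of these 89, 30.3% had a peak within 10 kb and 25.8% a kept nearest peak, and they made up 12.2% of chromosome 11 peaks. Without chromosome 11, the chromosome with the most kept peaks was 2, at 9.50%. Within 5, 50 and 100 kb, 15.1, 44.3 and 54.2% of kept peaks had another peak. Apart from membership by construction, the cause of these shifts was not tested.

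Ratios of short kept peaks rest on few reads: those of 400 bp had a median of 30 WT reads, and the interval lay above 0.7 at 14 of 67.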
